A study of Rattus norvegicus with 6 samples.

Results

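The proteasome genes were taken as every row of the deposited count table whose symbol starts with Psma, Psmb, Psmc, Psmd, Psme, Psmf or Psmg and a number, without symbols holding -ps. That rule took 49 of 37209 rows: the subunits of the 20S core and the 19S regulatory particle, the immunoproteasome subunits, the activators, the regulator PI31 and most dedicated assembly chaperones. It also took Psmc3ip, whose product is a recombination protein named for its binding to Psmc3 and not a proteasome subunit. Of the 49 genes, 46 had enough counts to be tested. The other 3 were Psma8, Psmb11 and Psmd10, whose counts are given with their groups.

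The proteasome is the barrel-shaped protease that degrades most ubiquitin-tagged proteins in the cytosol and nucleus. Alpha and beta subunits form the rings of the 20S core, in which only some beta subunits are catalytic, and the 19S particle on its end binds the ubiquitin chain, removes it, and unfolds and feeds in the substrate through a ring of ATPases. When the proteasome is inhibited or overloaded, the transcription factor NRF1 (Nfe2l1) escapes degradation and raises subunit genes together, and the oxidant-responsive factor NRF2 (Nfe2l2) can act on some of the same genes. Blood cells, and other cells under interferon, make another set of catalytic subunits, which form the immunoproteasome that supplies peptides for MHC class I.

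RNA was sequenced from primary mesenchymal stem cells of wild-type rat femoral bone marrow (BMSCs), stromal progenitors of bone, cartilage and fat. Cells of 3 libraries had received cigarette smoke extract (CSE), the soluble fraction of smoke collected in a liquid, at 3% for 6 h. In 3 control libraries they had been given serum-free culture medium. All cells were grown beforehand in serum-containing medium, and no label states which medium carried the extract. No label states that the libraries of 1 group are separate cultures or animals either. The p-values below therefore rest on the scatter among these 6 libraries, and that scatter may be purely technical.

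Library totals lay between 15958621 and 22589327 counts, and the 3 CSE totals were all above the 3 control totals. Levels are given as counts per 1000000 of the TMM-scaled library total (CPM), which makes libraries comparable for 1 gene but does not compare genes of different length. In edgeR's quasi-likelihood test over 13390 genes, with Benjamini-Hochberg adjustment over all of them and a threshold of 0.05, 36.3% of genes were higher with CSE and 37.5% were lower, so a call alone was common. Of the genes called, 49.2% were higher, a share that became 37.2% when libraries were scaled by total counts alone, which moved the median of all genes by −0.19 on the log2 scale. The median log2 fold change of all genes tested was −0.02, with quartiles of −0.61 and 0.49. All 12 stromal markers listed were tested, with 4 higher, 5 lower and 3 that did not pass, led by Col1a1 at 26075 CPM with CSE and 28774 CPM in control. Of 21 leukocyte and macrophage markers, 17 passed the filter, including Ptprc at 49.3 CPM with CSE and 61.8 CPM in control, while Cd163, Cd79a and Cd3e were at 0 in every library.

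Of the 46 tested proteasome genes, 36 were higher with CSE, 4 were lower and 6 did not pass the threshold. The group median was 0.56 on the log2 scale. In 36 genes every CSE library lay above every control library, against 37.2% of all genes tested, and in 6 every CSE library lay below, against 38.6%. The 36 without overlap include Psme3, which did not pass, and leave out Psmg2, which passed with overlap. At least 2-fold higher were 6 genes (Psma5, Psmc6, Psmd3, Psmd5, Psmd8 and Psmd11), where 10.7% of all genes tested passed that mark. The genes divided by role. All 31 tested constitutive subunits of the core and the regulatory particle that the symbol rule takes rose, by 0.28 to 1.42 on the log2 scale with a median of 0.68 and quartiles of 0.54 and 0.85. Under scaling by total counts alone 28 of the 31 were called higher, without Psmb5 (log2 0.11, edgeR adjusted p = 0.0646), Psmc3 (log2 0.10, edgeR adjusted p = 0.0642) and Psmd13 (log2 0.09, edgeR adjusted p = 0.133). The other 15 tested genes, which are inducible subunits, activators, chaperones, PI31 and Psmc3ip, held 5 higher (Psmd5, Psmd9, Psme4, Psmf1 and Psmg2), all 4 lower (Psmb8, Psmb9, Psmg3 and Psmc3ip) and all 6 that did not pass, with a median of −0.02. Summed over the constitutive subunits, the level was 6048, 5926 and 5933 CPM in the CSE libraries and 3560, 3513 and 3624 CPM in the control libraries.

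**Figure D1:**
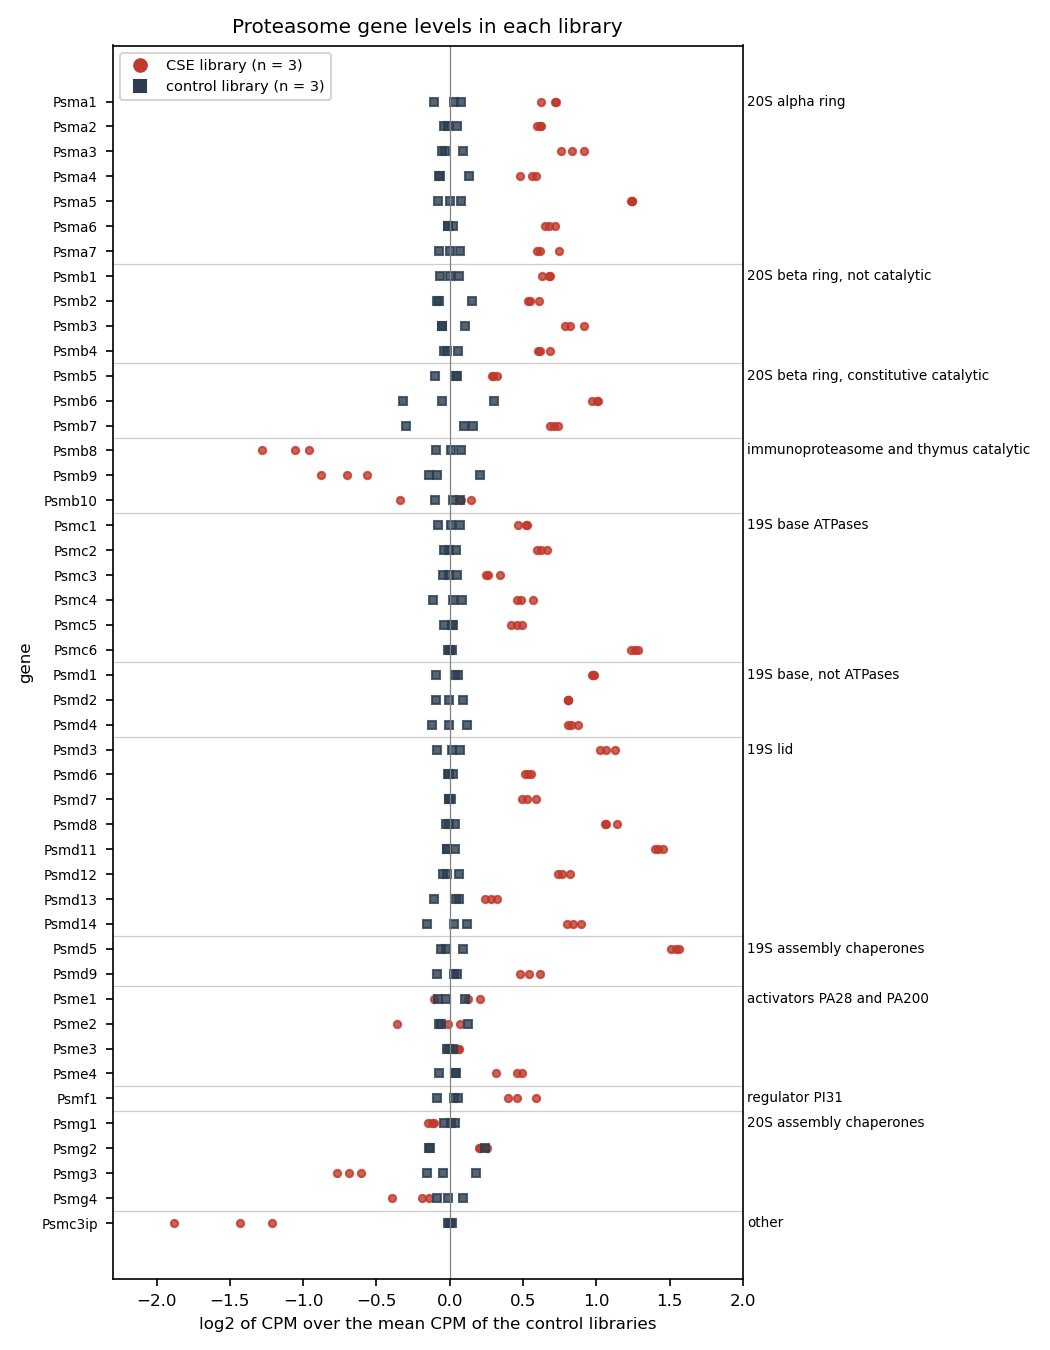
Level of each of the 46 tested proteasome genes in each library, as log2 of CPM over the mean CPM of the 3 control libraries (x axis), with genes grouped by role (y axis). Red circles are the 3 CSE libraries and dark squares the 3 control libraries; in all 31 constitutive subunits of the core, the base and the lid the circles lie to the right of every square.

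**Figure D2:**
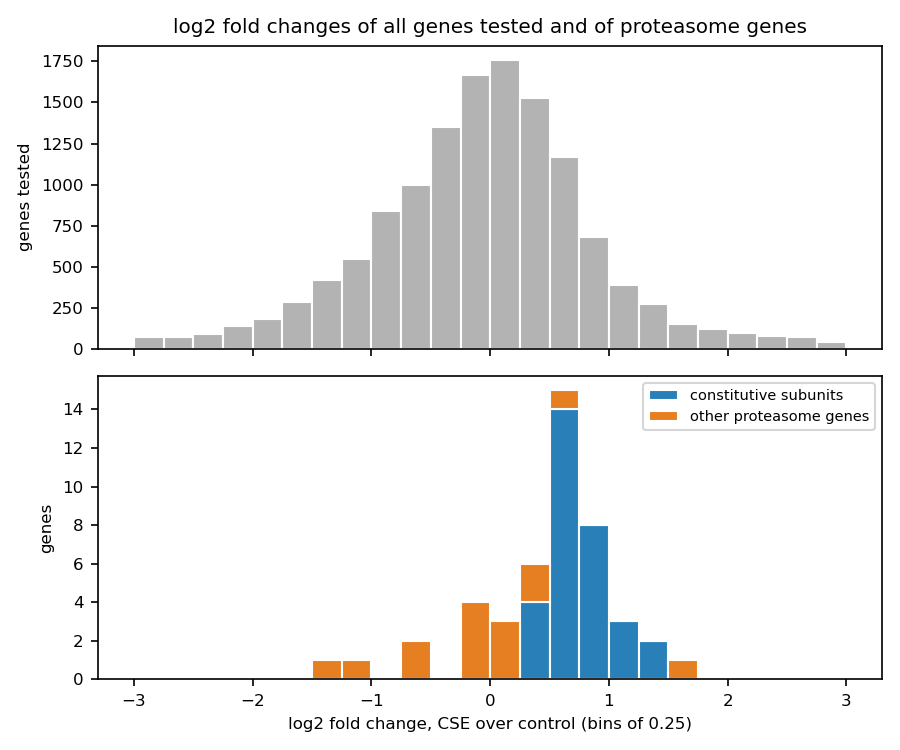
Number of genes (y axes) by log2 fold change of CSE over control in bins of 0.25 (x axis), for all genes tested (top, showing the 13030 genes between −3 and 3) and for the 46 tested proteasome genes (bottom). The 31 constitutive subunits, in blue, sit between 0.28 and 1.42, while the 15 other proteasome genes, in orange, spread on both sides of 0.

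Because the constitutive subunits moved together, the promoters of the proteasome genes were read for the elements of factors that act on them. RefSeq promoters (GRCr8, 250 bases before to 50 after the gene start) were matched for 44 of the 49 genes, all but Psma7, Psmb11, Psmd6, Psmd12 and Psmd14. The core of the antioxidant response element, the site read by NRF1 and NRF2, was searched as TGACNNNGC on both strands. It was found in 8 of the 44 (18.2%) and in 4038 of all 33469 promoters (12.1%). Among the 10249 matched promoters of genes tested, 1495 held it (14.6%). All 8 genes, Psma3, Psmb2, Psmb5, Psmb6, Psmd1, Psmd3, Psmd9 and Psme4, were among the 32 matched genes that were higher with CSE, beside 628 of the 3847 matched promoters of all genes tested and higher (16.3%). A heat shock element core, GAANNTTC, was found in 3 of 44 promoters (Psmb9, Psmc3 and Psmd1, 6.82%). Its share was 8.59% of all promoters and 6.04% of those of genes tested. The NF-Y box, CCAAT, was found in 22 of 44, in 37.5% of all and in 36.9% of those of genes tested. Both strands were searched for each. The genes with the largest rises, Psmd5, Psmd11, Psmc6 and Psma5, had no TGACNNNGC in this window. A match is a description of the letters and not evidence of binding. Psmd1 and Psmd9 had 2 matches each, of which the farther is shown, and the match of Psmd3 lies after the gene start and is not shown.

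The stretches around the matches that end before the gene start are printed here so that the element can be seen in its setting. Each is from the gene's promoter, outside its transcript, and reads 5′ to 3′ on the strand of the gene. The distance is that of the first base of the match, with the 9-base match in capitals (GCNNNGTCA where the element lies on the other strand).
Psma3, chr6:95219711-95219748, plus strand, 12 bases before the start: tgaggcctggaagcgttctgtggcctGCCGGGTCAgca
Psmb2, chr5:144254964-144255024, plus strand, 68 bases before the start: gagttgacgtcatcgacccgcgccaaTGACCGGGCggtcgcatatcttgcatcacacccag
Psmb5, chr15:32047405-32047465, minus strand, 60 bases before the start: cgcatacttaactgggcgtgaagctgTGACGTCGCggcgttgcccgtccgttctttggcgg
Psmb6, chr10:55737838-55737887, plus strand, 24 bases before the start: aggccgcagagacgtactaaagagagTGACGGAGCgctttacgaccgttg
Psmd1, chr9:94157780-94157840, plus strand, 165 bases before the start: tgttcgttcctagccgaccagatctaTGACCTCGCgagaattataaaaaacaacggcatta
Psmd9, chr12:39018354-39018414, minus strand, 124 bases before the start: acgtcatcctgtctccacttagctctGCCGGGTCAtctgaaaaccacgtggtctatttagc
Psme4, chr14:108706562-108706622, plus strand, 55 bases before the start: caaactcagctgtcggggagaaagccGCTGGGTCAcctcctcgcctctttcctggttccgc
The 7 genes shown rose by between 0.30 (Psmb5) and 0.99 (Psmb6) on the log2 scale. Psmd3, whose match is not shown, rose by 1.07. Whether the element goes with the size of a rise was not tested. Psma3 and Psmd9 shared the same 9 letters on the opposite strand.

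The alpha ring forms the gate of the core, and all 7 tested alpha genes rose. Psma5 rose most, with 194, 193 and 195 CPM in the CSE libraries and 77.9, 82.2 and 86.5 CPM in the control libraries. The CSE libraries differed from each other by less than the control libraries did, and the change was 2.36-fold (log2 1.24 ± 0.05 SE, edgeR adjusted p = 5.1e-13). The smallest rise in the ring was that of Psma4, with 201, 197 and 186 CPM against 146, 127 and 128 CPM (log2 0.54 ± 0.06 SE, edgeR adjusted p = 1.7e-07). Neither gene's groups overlapped. The other 5 alpha genes, Psma1, Psma2, Psma3, Psma6 and Psma7, lay close together between 0.61 and 0.84. Psma8, the alpha subunit of spermatogenic cells that stands in for Psma7, had 3, 0 and 0 counts with CSE and 2, 4 and 2 in control and was not tested.

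The beta subunits that carry no proteolytic site rose within a narrow band. Psmb3 had 150, 137 and 140 CPM with CSE and 76.4, 76.5 and 85.5 CPM in control (log2 0.84 ± 0.06 SE, edgeR adjusted p = 5.2e-10). Psmb2 had 126, 120 and 121 CPM with CSE and 91.7, 78.6 and 77.8 CPM in control (log2 0.56 ± 0.06 SE, edgeR adjusted p = 2.2e-07). These were the largest and the smallest of the 4, with Psmb1 at 0.66 and Psmb4 at 0.63. The rat RefSeq table lists 8 pseudogenes named after Psmb3, more than for any other gene here, and 48 pseudogenes in all share a name with 19 of the 49 genes. How reads were shared between such copies is not known here.

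The 3 constitutive catalytic subunits all rose but not by the same amount. Psmb5, which carries the chymotrypsin-like site and is the main target of proteasome inhibitor drugs, had 114, 116 and 114 CPM with CSE and 86.7, 95.9 and 96.1 CPM in control. Its change of 0.30 ± 0.05 SE on the log2 scale (edgeR adjusted p = 6.0e-05) was among the 3 smallest of the 31 constitutive subunits, beside Psmc3 and Psmd13. Psmb6, the caspase-like subunit, had 57.6, 59.0 and 59.3 CPM with CSE and 23.6, 36.2 and 28.3 CPM in control, a change of 0.99 ± 0.10 SE (edgeR adjusted p = 9.3e-08). Psmb7, the trypsin-like subunit, had 121, 124 and 126 CPM with CSE and 61.3, 80.8 and 84.4 CPM in control, a change of 0.71 ± 0.08 SE (edgeR adjusted p = 5.5e-07). For Psmb6 and Psmb7 the control libraries were spread more widely than the CSE libraries, with control library 1 lowest, yet no control library reached any CSE library.

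Of the 3 tested immunoproteasome subunits, 2 fell and 1 did not pass. Psmb8, which takes the place of Psmb5, had 4.41, 3.54 and 4.13 CPM with CSE and 8.65, 9.06 and 8.07 CPM in control, and fell by 1.09 on the log2 scale (± 0.14 SE, edgeR adjusted p = 2.0e-06), a 2.12-fold lower level. Psmb9, which takes the place of Psmb6, had 5.45, 4.96 and 4.39 CPM with CSE and 7.59, 7.32 and 9.33 CPM in control, and fell by 0.71 (± 0.15 SE, edgeR adjusted p = 3.1e-04). In both genes all CSE libraries were below all control libraries. Psmb10, which takes the place of Psmb7, had 14.4, 10.8 and 15.1 CPM with CSE and 12.8, 13.9 and 14.4 CPM in control. CSE library 2 was the lowest of all 6 and the other CSE libraries were just above the control range (log2 −0.02 ± 0.12 SE, edgeR adjusted p = 0.874, and log2 0.12 without that library). Psmb11, the catalytic subunit of the thymus, had 4, 5 and 4 counts with CSE and 5, 2 and 1 in control and was not tested.

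Within a library, the ratio of an inducible subunit to its constitutive counterpart does not depend on how libraries are scaled. Psmb8 counts were 3.86%, 3.05% and 3.64% of Psmb5 counts with CSE and 9.97%, 9.45% and 8.39% in control, a log2 difference of −1.40. Psmb9 counts were 9.47%, 8.41% and 7.40% of Psmb6 counts with CSE and 32.2%, 20.2% and 32.9% in control, a log2 difference of −1.72. Psmb10 counts were 11.9%, 8.72% and 12.0% of Psmb7 counts with CSE and 20.8%, 17.1% and 17.0% in control, a log2 difference of −0.76. All 3 ratios were lower in every CSE library than in any control library. For Psmb8 and Psmb9 this follows from the separation of the single genes given above. In the Psmb10 ratio, Psmb7 rose (log2 0.71) while Psmb10 did not pass (log2 −0.02). The 2-sided exact permutation test gave p = 0.1 for each ratio, which is the smallest value 3 libraries against 3 can give. These percentages compare read counts and not molecules, because transcript length was not taken into account.

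**Figure D3:**
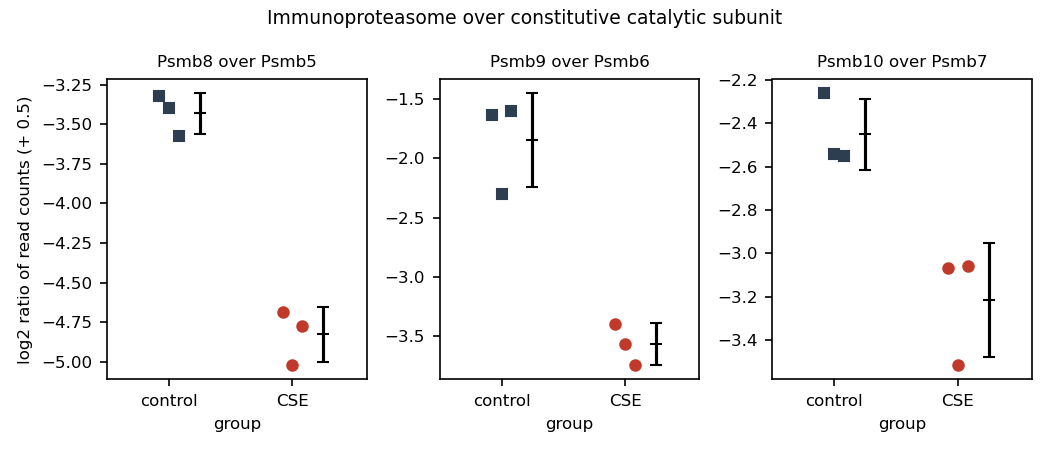
Log2 ratio of read counts (y axes, 0.5 added to each count) of the immunoproteasome subunits Psmb8, Psmb9 and Psmb10 over the constitutive subunits Psmb5, Psmb6 and Psmb7, by group (x axes). Points are libraries and bars the mean ± SD over 3 libraries; in each panel all CSE libraries lie below all control libraries, by −1.40, −1.72 and −0.76 on average.

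Genes that share interferon control or antigen processing with the immunoproteasome were found among both the higher and the lower genes. Of 23 listed, 21 were tested, with 6 higher and 8 lower, beside 36.3% higher and 37.5% lower among all genes tested, so these counts do not set the list apart. The remaining 7 did not pass, and the median over the list was −0.03. Ifi47, an interferon-inducible GTPase, had 0.616, 0.981 and 1.03 CPM with CSE and 5.71, 3.53 and 4.18 CPM in control (log2 −2.35 ± 0.27 SE, edgeR adjusted p = 4.6e-07). Among the genes that rose were Cxcl10, a chemokine, by 0.96, the receptor subunit Ifngr2 by 0.48, and B2m, the light chain of MHC class I, by 0.43. Irf1, an activator of Psmb8 and Psmb9, had 15.8, 18.2 and 14.2 CPM with CSE and 12.8, 13.1 and 14.7 CPM in control, so that its groups overlapped although its test passed (log2 0.25 ± 0.11 SE, edgeR adjusted p = 0.0439). In the rat MHC region of chromosome 20 (RefSeq, GRCr8), Tap1, a subunit of the peptide transporter, lies between Psmb8 and Psmb9. Tap1 had 22.0, 21.3 and 21.8 CPM with CSE and 20.8, 19.96 and 21.6 CPM in control and did not pass (log2 0.06 ± 0.08 SE, edgeR adjusted p = 0.462), while both of these neighbours were lower. Tap2, the other transporter subunit, and Oas1a had too few counts to be tested.

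Blood cells express immunoproteasome genes constitutively, and the libraries held leukocyte transcripts. The 17 tested leukocyte and macrophage markers comprised 4 higher (Cd68, Lyz2, Tyrobp and Laptm5), 5 lower (Ptprc, Csf1r, Cd14, Mrc1 and Spi1) and 8 that did not pass. Over the whole list of 21 the summed level was 1961 to 2031 CPM with CSE and 1764 to 1813 CPM in control. Most of it came from the lysozyme gene Lyz2, with 1441, 1398 and 1399 CPM with CSE and 1194, 1155 and 1174 CPM in control. Without Lyz2, the sum of the other markers was lower in every CSE library than in any control library. Ptprc, the pan-leukocyte marker, fell by 0.33 on the log2 scale, Spi1, the myeloid transcription factor, fell by 0.58, and Cd14, a monocyte receptor that stromal cells can also carry, fell by 1.45. On the other side, Laptm5 rose by 0.57, Tyrobp by 0.28, Lyz2 by 0.27 and Cd68 by 0.14. Endothelial markers summed to 3.27 to 3.71 CPM with CSE and 6.35 to 7.22 CPM in control. Most of that sum came from Tek, with means of 3.23 and 5.88 CPM, the only endothelial marker with enough counts to be tested. All 4 of 4 erythroid markers with a row were at 0. The part of these cells in the immunoproteasome values was not tested, and in bulk RNA fewer cells of a type cannot be told apart from less RNA per cell.

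The base of the 19S particle holds the ATPase ring, and all 6 of its genes rose. Psmc6 stood apart from the other 5, with 281, 286 and 289 CPM in the CSE libraries and 119, 120 and 118 CPM in the control libraries. The change was 2.40-fold (log2 1.26 ± 0.04 SE, edgeR adjusted p = 7.9e-14), and the control libraries were nearly equal. Psmc6 overlaps Styx and Rps10l6 in the RefSeq table, and reads of overlapping genes cannot be told apart without strand information. Other proteasome genes overlap a neighbour too, among them Psmb1 (Tbp), Psmd1 (Htr2b), Psme1 (Emc9) and Psmc3ip (Mlx). Psmc3 rose least, with 262, 245 and 248 CPM against 206, 200 and 213 CPM (log2 0.29 ± 0.05 SE, edgeR adjusted p = 3.2e-05). The other 4 ATPase genes, Psmc1, Psmc2, Psmc4 and Psmc5, lay between 0.46 and 0.63. Although 1 copy of each ATPase enters a ring, the rises of the 6 transcripts ranged from 1.22-fold to 2.40-fold.

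The 3 other subunits of the base are scaffolds and ubiquitin receptors. Psmd1, a scaffold that docks the ubiquitin receptor Adrm1, had 377, 377 and 380 CPM with CSE and 200.003, 180 and 196 CPM in control (log2 0.98 ± 0.05 SE, edgeR adjusted p = 6.8e-12). Psmd2, the scaffold for shuttle factors and Usp14, had 451, 450 and 452 CPM with CSE and 242, 257 and 274 CPM in control (log2 0.81 ± 0.05 SE, edgeR adjusted p = 1.1e-10). Psmd4, the intrinsic ubiquitin receptor, rose by 0.83. The groups were far apart in all 3 genes.

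The lid removes ubiquitin chains, and the 8 lid genes that the symbol rule takes rose by between 0.28 and 1.42. Psmd11, a lid subunit whose abundance is known to favour assembly of the capped proteasome, had 248, 244 and 254 CPM with CSE and 91.7, 95.2 and 91.7 CPM in control. Its 2.68-fold rise (log2 1.42 ± 0.05 SE, edgeR adjusted p = 3.0e-14) was the largest of the 31 constitutive subunits. Psmd13, at the other end, had 148, 144 and 140 CPM with CSE and 110, 122 and 124 CPM in control (log2 0.28 ± 0.05 SE, edgeR adjusted p = 1.5e-04). Psmd8 and Psmd3 rose by 1.09 and 1.07, Psmd14, the deubiquitinase of the lid, by 0.85, and Psmd12 by 0.77. Psmd6 and Psmd7, the inactive partner of Psmd14, rose by 0.53 and 0.54. All 8 of these lid genes were higher in every CSE library than in any control library.

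Both tested chaperones of the 19S base rose. Psmd5 had 164, 170 and 168 CPM with CSE and 56.6, 61.3 and 55.3 CPM in control. This 2.91-fold rise (log2 1.54 ± 0.05 SE, edgeR adjusted p = 5.4e-14) was the largest of the 46 tested genes. Psmd5 binds the free ATPases and is released from the finished particle, and an excess of it is known to hold back formation of the 26S proteasome. Its locus overlaps Cutal in the RefSeq table. Psmd9 had 38.6, 35.1 and 36.6 CPM with CSE and 25.7, 26.1 and 23.7 CPM in control (log2 0.55 ± 0.07 SE, edgeR adjusted p = 1.5e-06). Psmd10, the chaperone gankyrin, had 0 counts in all 6 libraries. It lies on chromosome X, where 594 of 606 protein-coding genes in the count table were listed at 0, so its value says nothing of its expression.

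Of the 4 chaperones of the 20S core, 1 was lower, 1 was higher and 2 did not pass. Psmg1 and Psmg2 pair to start the alpha ring, and Psmg3 and Psmg4 pair to align its members. Psmg3 had 11.9, 12.6 and 13.4 CPM with CSE and 19.7, 18.3 and 23.1 CPM in control, and fell by 0.69 on the log2 scale (± 0.10 SE, edgeR adjusted p = 8.0e-06). Its partner Psmg4 had 11.2, 11.6 and 9.76 CPM with CSE and 12.1, 12.7 and 13.7 CPM in control. The groups did not overlap, and the test just missed the threshold (log2 −0.24 ± 0.11 SE, edgeR adjusted p = 0.0516). Psmg1 had 31.9, 31.6 and 31.0 CPM with CSE and 33.4, 34.6 and 35.2 CPM in control, again without overlap and without passing (log2 −0.13 ± 0.06 SE, edgeR adjusted p = 0.0790). Both Psmg4 and Psmg1 were called lower under upper-quartile and total-count scaling. Psmg2 had 24.7, 23.8 and 23.9 CPM with CSE and 18.8, 24.5 and 18.9 CPM in control. Control library 2 lay among the CSE libraries, and the test was at the edge of the threshold (log2 0.22 ± 0.10 SE, edgeR adjusted p = 0.0486). That call was lost in DESeq2 (adjusted p = 0.0533), under 2 of the other scalings and in 5 of the 6 fits that each left out 1 library.

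The activators that cap the core in place of the 19S particle showed a rise in 1 of 4. Psme4, which encodes PA200, a nuclear activator linked to histone degradation, had 197, 223 and 218 CPM with CSE and 163, 162 and 151 CPM in control (log2 0.42 ± 0.05 SE, edgeR adjusted p = 2.0e-06). Psme1, an interferon-inducible subunit of the cytosolic activator PA28, had 48.3, 41.2 and 51.2 CPM with CSE and 41.9, 43.5 and 47.7 CPM in control, with overlap (log2 0.08 ± 0.08 SE, edgeR adjusted p = 0.365, and log2 −0.11 with total counts alone). Its partner Psme2, which follows it on chromosome 15, had 6.68, 4.96 and 6.30 CPM with CSE and 6.94, 6.11 and 6.05 CPM in control, also with overlap (log2 −0.08 ± 0.15 SE, edgeR adjusted p = 0.623). RefSeq lists 3 pseudogenes for each of Psme1 and Psme2 and 4 for Psme3. Psme3, the nuclear PA28 subunit, had 129, 132 and 131 CPM with CSE and 124, 126 and 128 CPM in control. These groups did not overlap but differed by only 0.05 ± 0.05 SE on the log2 scale (edgeR adjusted p = 0.339), and the sign turned with scaling by total counts alone (log2 −0.14, edgeR adjusted p = 0.0127). Psmf1, which encodes PI31, a core-binding regulator and transport adaptor, had 45.4, 39.8 and 41.5 CPM with CSE and 31.0, 28.4 and 31.5 CPM in control (log2 0.48 ± 0.07 SE, edgeR adjusted p = 7.6e-06).

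Psmc3ip, which acts in homologous recombination, was the lowest of the 46 genes by fold. It had 3.74, 4.36 and 2.74 CPM with CSE and 10.2, 10.0 and 10.1 CPM in control (log2 −1.48 ± 0.15 SE, edgeR adjusted p = 1.3e-07). Without it, 36 of 45 proteasome genes were higher, 3 were lower and the median was 0.56.

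**Figure D4:**
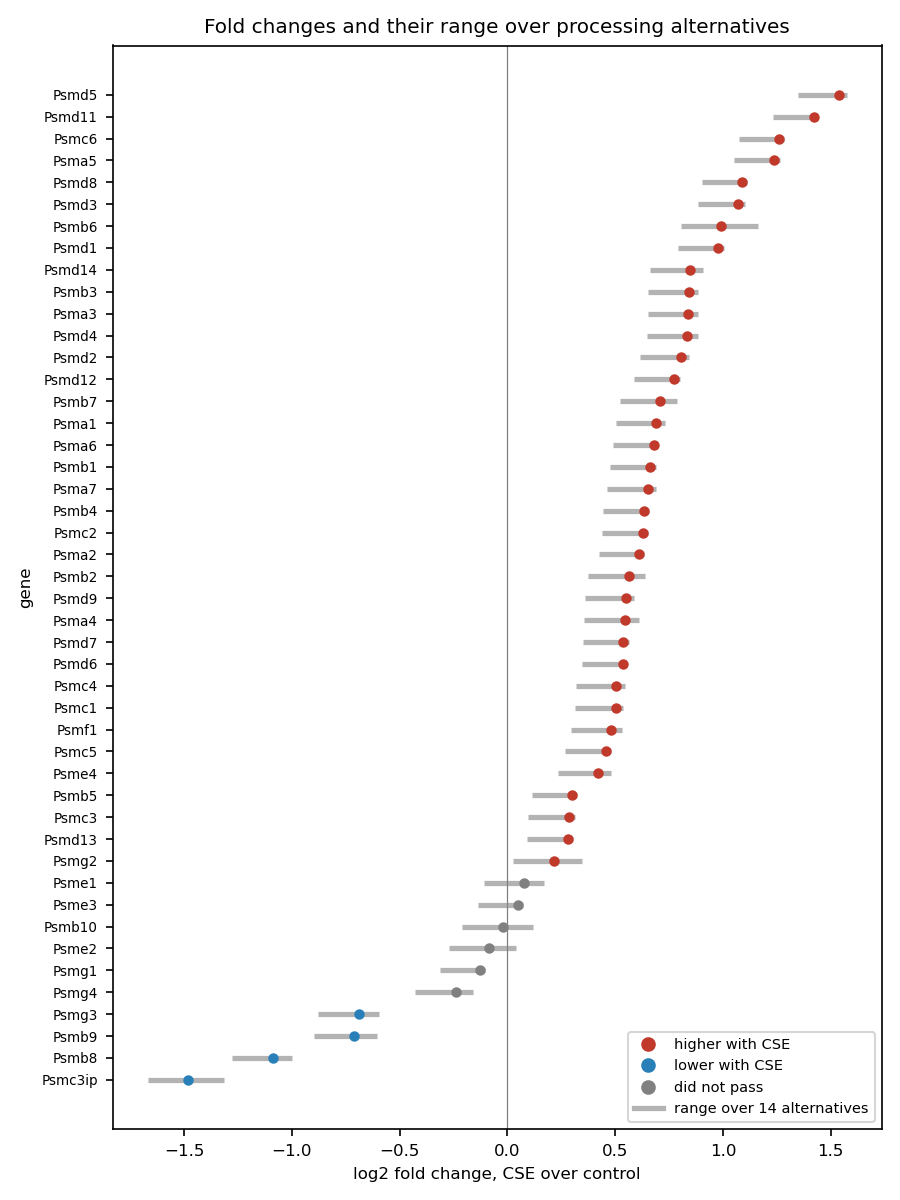
Log2 fold change of CSE over control (x axis) for the 46 tested proteasome genes ordered by size (y axis), coloured by call, with grey bars for the range over 14 other ways of processing. Psmd5 at 1.54 and Psmc3ip at −1.48 are the ends of the order, and the bars of Psme1, Psme2, Psme3 and Psmb10 cross 0.

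Proteasome partners that the symbol rule does not take included receptors, deubiquitinases and assembly factors. Of 11 tested, 8 were higher and 3 did not pass, beside 36.3% higher among all genes tested, and their median was 0.82. Usp14, the deubiquitinase that docks on Psmd2, had 257, 272 and 280 CPM with CSE and 120, 125 and 110 CPM in control (log2 1.19 ± 0.06 SE, edgeR adjusted p = 2.6e-12). The ubiquitin receptor Adrm1 rose by 0.82 and its deubiquitinase partner Uchl5 by 0.62. The largest change was that of Zfand2a, an arsenite- and heat-inducible protein that associates with the 19S particle, with 4812, 4580 and 5243 CPM against 31.9, 28.9 and 32.3 CPM, a 157-fold rise (edgeR adjusted p = 3.5e-21). Zfand5, an activator of the 26S proteasome from the same family, rose 3.36-fold. Pomp, the maturation chaperone of the core, had 1.56, 2.02 and 1.34 CPM with CSE and 0.824, 1.26 and 1.06 CPM in control, without overlap and without passing (log2 0.63 ± 0.30 SE, edgeR adjusted p = 0.0682). Its row held only 33, 37 and 26 counts with CSE and 14, 24 and 21 in control. Whether that row takes all reads of the gene is not known here. Shfm1, the older symbol of the small lid subunit Sem1, did not differ beyond its spread at 107 ± 1.96 CPM with CSE and 107 ± 15.3 CPM in control (SD, n = 3; edgeR adjusted p = 0.917). The proteasome-bound ubiquitin ligase Ube3c did not pass either (log2 −0.08 ± 0.05 SE, edgeR adjusted p = 0.143).

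Shuttle factors, which carry ubiquitinated proteins to the 19S receptors, were higher in 4 of 5 tested genes, beside 36.3% of all genes tested. Ubqln1 rose by 0.81, Rad23b by 0.64, Ddi2, the protease that cleaves NRF1, by 0.59 and Ubqln4 by 0.42 on the log2 scale. Of 12 genes of the NRF1 and NRF2 pathways, 8 were higher, beside the same 36.3% of all genes tested, and 4 did not pass. The list's median was 0.36, and Ddi2 counts as higher in this list and among the shuttle factors. Nfe2l1 itself had 300, 295 and 291 CPM with CSE and 224, 223 and 228 CPM in control, a 1.31-fold rise (log2 0.39 ± 0.04 SE, edgeR adjusted p = 2.8e-07). Nfe2l2 rose 3.37-fold (log2 1.75 ± 0.05 SE, edgeR adjusted p = 4.9e-15), from 156, 141 and 139 CPM in control to 486, 484 and 499 CPM. Keap1, which targets NRF2 for degradation, rose by 1.20. Ngly1, which deglycosylates NRF1 on the way to its active form, did not pass (log2 −0.13 ± 0.06 SE, edgeR adjusted p = 0.0812), nor did the scarce relative Nfe2l3 (log2 −0.73 ± 0.41 SE, edgeR adjusted p = 0.114), Sel1l (log2 0.10) or Btrc (log2 0.07). NRF1 and NRF2 are controlled mainly as proteins, which these counts do not measure.

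**Figure D5:**
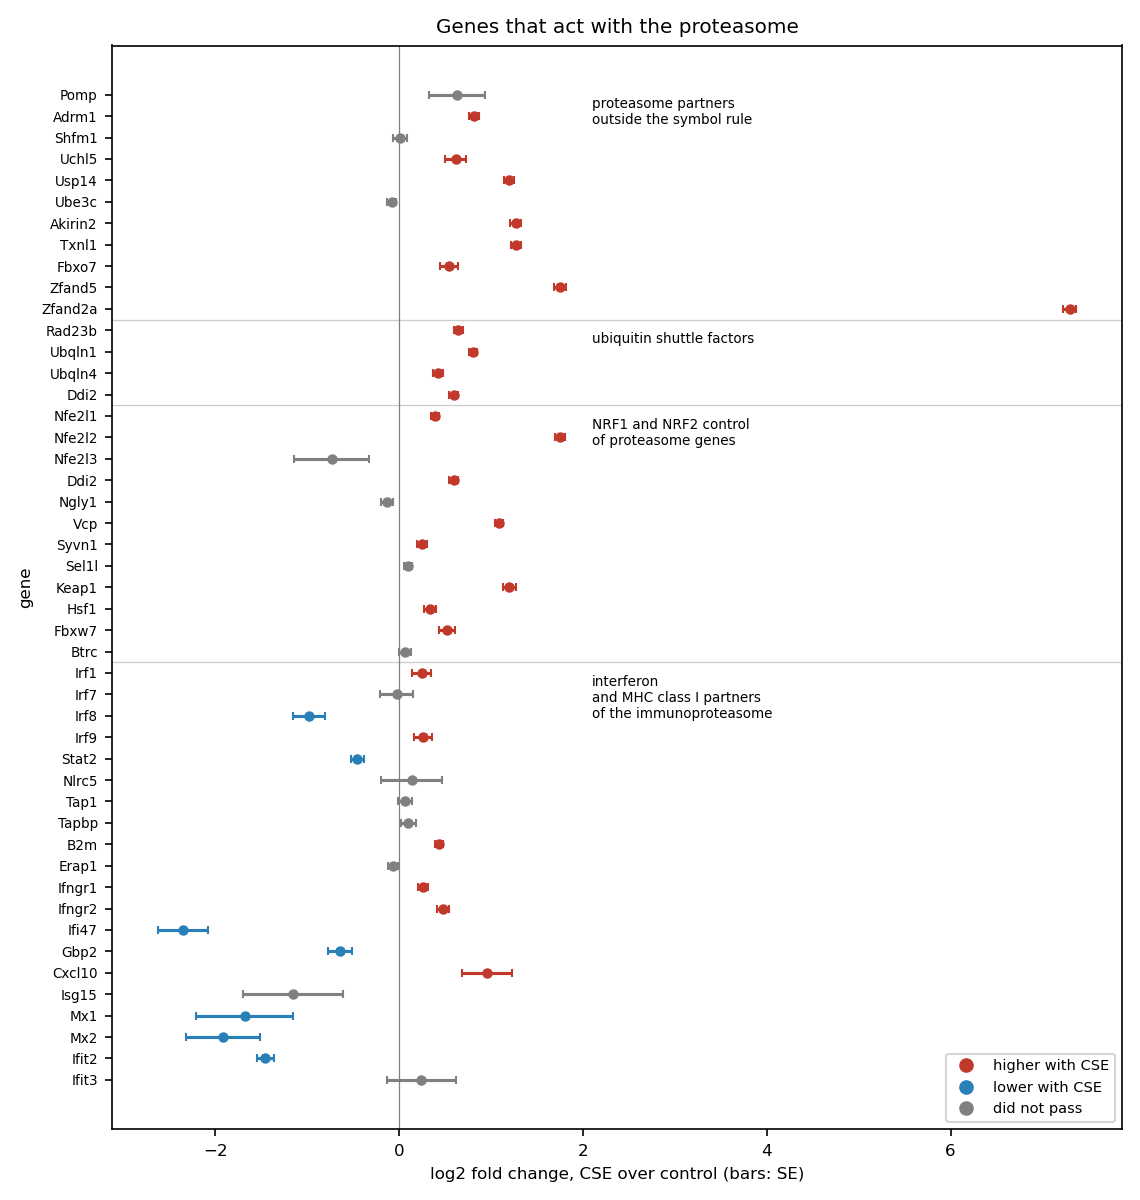
Log2 fold change of CSE over control with its SE (x axis) for genes of 4 lists linked to the proteasome (y axis), coloured by edgeR call. Higher are 8 of 11 partners, all 4 shuttle factors drawn and 8 of 12 NRF pathway genes, with Zfand2a farthest at 7.30, whereas the interferon and MHC class I list holds genes on both sides of 0. Of all genes tested, 36.3% were higher.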

How the data were processed

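RNA-seq libraries of rat BMSCs, 3 exposed to CSE and 3 control, were compared. The deposited file holds raw read counts per gene symbol, which the authors made from their reads. HISAT2 2.0.4 and the build Rnor_6.0 are named in the submitters' processing notes, with no role given. For the annotation, the strand setting and the read counter, nothing is given in the sources used here, so reads of overlapping genes and of pseudogene copies could not be told apart.

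Each column was assigned to the sample whose title it matches. Genes were filtered with filterByExpr, scaled with TMM factors (0.932 to 0.944 with CSE and 1.06 to 1.07 in control) and tested with edgeR 4.0.16 in R 4.3.3 (quasi-likelihood F test, 2-sided, Benjamini-Hochberg over 13390 genes, threshold 0.05). The SE of a log2 fold change is its size over the square root of F. The scripts were tested on simulated data. Every pair of libraries differed by more than sampling noise (chi-square per degree of freedom 3.24 to 5.74 within groups, 180 to 217 between). Depth sets the precision: 3 counts, the upper limit of a count of 0, equal 0.142 to 0.177 CPM, for counting error only. Count ratios were compared with 0.5 added, by exact permutation tests in scipy 1.17.1.

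Members, lists and roles were chosen with earlier results of these data known. Values per library are given for the largest and smallest change of each role, for all catalytic, inducible, activator and assembly genes, and for genes not called higher. Of each linked list, the 2 largest and 2 smallest changes and a few fixed genes are named, except 2 genes that count in their lists but are not reported here or drawn. The cell type markers named come from 4 fixed lists. Alternatives, 14 in all, comprised 3 other scalings, 2 other filters, DESeq2 1.42.0, limma-voom 3.58.1, a replicate block and leaving out each library. RefSeq tables of GRCr8 gave neighbours, pseudogenes and promoters, and the promoter table was the source of the sequences; protein sequences were not used here.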

Additional observations from a re-analysis of the deposited data

How the results depend on the processing

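Under 14 alternatives the count of proteasome genes called higher lay between 32 and 36 and the count called lower between 4 and 7. Scaling by total counts alone gave 32 higher and 7 lower, and upper-quartile scaling gave 35 and 6; the all-gene median moved by −0.19 and −0.14, and the median of the proteasome genes was 0.37 and 0.42, in both cases 0.573 above that of all genes, as in the reported fit. Under these 2 scalings the sign turned for Psme1 (−0.11 with total counts, −0.058 with upper quartiles) and Psme3 (−0.14 and −0.087), while Psmg1 (−0.31 and −0.26) and Psmg4 (−0.43 and −0.38) were called lower and the call of Psmg2 was lost (0.03 and 0.08). Psmg4 was also called lower with a CPM minimum of 1, with limma-voom, and without CSE replicate 2 or control replicate 1. Leaving out each library in turn gave 35 to 36 higher, 4 to 5 lower and a median of 0.52 to 0.59, with Psmb10 between −0.11 and 0.12 and Psme2 between −0.17 and 0.039, each highest without CSE library 2. With a replicate block, 36 were higher and 4 lower, the median was 0.56, and 9756 genes were called in place of 9894. Libraries of the same number did not deviate together (correlations of 0.02, −0.03 and 0.00), so the block was not used. With the looser element TGANNNNGC, 22 of 44 promoters matched (40.5% of all promoters and 43.6% of those of genes tested). Psmd5 and Psma5 were among these 22, and Psmd11 and Psmc6 were not. The 3 count ratios remained negative throughout. Psmb8, Psmb9, Psmg3 and Psmc3ip were called lower in all 14 alternatives. Genes at low CPM, such as Psmc3ip, Psmb8, Psmb9 and Psme2, rest on the smallest counts among the tested proteasome genes, and no protein was measured.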
